A study of Mus musculus with 3 samples.

Results

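The genes of sterol synthesis, uptake and efflux described here are a set of 29, picked by gene symbol for their role in cholesterol handling. They comprise 17 enzymes of cholesterol synthesis, 5 genes of the SREBP factors and their sterol sensors, 5 genes of transport, esterification and receptor turnover, and 2 efflux transporters. Transcript rows whose gene symbol matched a member were collected, and their FPKM, an abundance scaled to transcript length and library depth, were summed per symbol in each library. All 29 were among the 51803 gene symbols quantified. Of these, 27 were over 0.3 FPKM in at least 1 library, the level that the study takes for an expressed gene, and the same 27 were over it in every library. Expressed genes numbered 15438 in the whole data set. Abca1 and Abcg1 were the 2 members below that level.

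RNA-seq was performed on mpkCCD cells, a mouse kidney line with principal cell traits of the collecting duct that had been re-cloned for a high level of the water channel gene Aqp2. Stable lines were made with lentivirus and puromycin selection, carrying a non-targeting hairpin (shCtrl) or 1 of 2 different hairpins against the glucocorticoid receptor (shGR1 and shGR2). All 3 lines were at passages 18 to 32, grew on Transwell supports in medium with 2% fetal bovine serum, and were then kept without serum and supplements except dexamethasone, so that the receptor agonist was present in every line. No vasopressin analog was given (vehicle condition), and 1 library was sequenced per line. The difference of a single line from shCtrl therefore has no replicate check, and a hairpin cannot be told apart from the line that carries it. Both knockdown lines were compared with the same shCtrl library, so their ratios to it are not independent of each other.

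Nr3c1, the gene of the glucocorticoid receptor, was at 30.2 FPKM in shCtrl, 4.41 FPKM in shGR1 and 9.13 FPKM in shGR2. This was 14.6% of the control in shGR1 and 30.3% in shGR2, so both lines labelled as knockdowns had less of the targeted transcript. The paper reports higher and nearly equal remaining receptor mRNA for shGR1 and shGR2. The gap between the lines seen here rests on single libraries. FPKM sums ranged from 427704 to 462522 per library, and the smallest FPKM steps gave a rough depth of 40600000 to 49300000 fragments. No counting error is attached to single values, because counts were not analysed here. Of 10 principal cell markers 8 were expressed, 7 of them lower in shGR1 and 6 in shGR2, beside 53.0% and 58.1% of all expressed genes. Aqp2 was at 9.55 FPKM in shCtrl, 0.751 FPKM in shGR1 and 2.14 FPKM in shGR2. Aqp3 was higher in both knockdown lines, at 6.49, 9.11 and 8.97 FPKM in that order. Hsd11b2 was higher in shGR2 only, at 27.8, 19.5 and 55.8 FPKM. The transcription factor gene Elf5 was at 0.0928 FPKM in shCtrl and listed at 0 in both knockdown lines. Of 7 intercalated cell markers 3 were expressed, and all 3 were lower in both knockdown lines. These were Atp6v1b1, Rhcg and Car2, at 39.4, 13.0 and 34.4 FPKM in shCtrl. Of 6 proximal tubule markers, Slc34a1 and Slc22a6 were listed at 0 in all 3 libraries and 2, Lrp2 and Aqp1, were expressed. Lrp2 was at 1.05 FPKM in shCtrl, 1.10 FPKM in shGR1 and 2.10 FPKM in shGR2, close to the control in shGR1. Aqp1 was at 0.207, 0.358 and 0.379 FPKM in the same order. It passed the 0.3 FPKM level only in the knockdown lines, so no direction is read from it.

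Cells build cholesterol from acetyl-CoA through mevalonate, farnesyl diphosphate, squalene and lanosterol, and also take it up in lipoproteins that are broken down in lysosomes. The transcription factors SREBP-1 and SREBP-2 switch on these genes when sterols in the endoplasmic reticulum are low, being held there by Scap and the Insig proteins when sterols are high. Excess sterol is esterified for storage or exported by transporters that the oxysterol receptors LXR induce. In the collecting duct, membrane cholesterol is a known determinant of the traffic of the aquaporin-2 water channel.

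Most of the synthesis enzymes had a higher FPKM in shGR1 than in shCtrl, and they stood closer to shCtrl in shGR2. Of the 17 enzymes, 15 were higher in shGR1, with a median log2 ratio of 0.41 (33.3% higher), and 13 were higher in shGR2, with a median of 0.12 (8.59% higher). Of all expressed genes, 46.5% were higher in shGR1 and 41.5% in shGR2, with medians of -0.03 and -0.07. With only the transcript of highest mean FPKM per gene, 14 enzymes were higher in shGR1 and 10 in shGR2. The share of all genes was then 43.6% and 40.5%. The summed FPKM of the 17 enzymes was 852 in shCtrl, 1140 in shGR1 and 923 in shGR2, which is 33.7% and 8.33% above the control. The 10 other expressed members did not share that direction, with medians of -0.12 in shGR1 and -0.19 in shGR2. On FPKM summed over transcripts, Dhcr7, the last enzyme of the branch through 7-dehydrocholesterol, had the highest ratio in both lines. Mylip, which encodes a ligase for lipoprotein receptors, had the lowest ratio in shGR1.

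**Figure D1:**
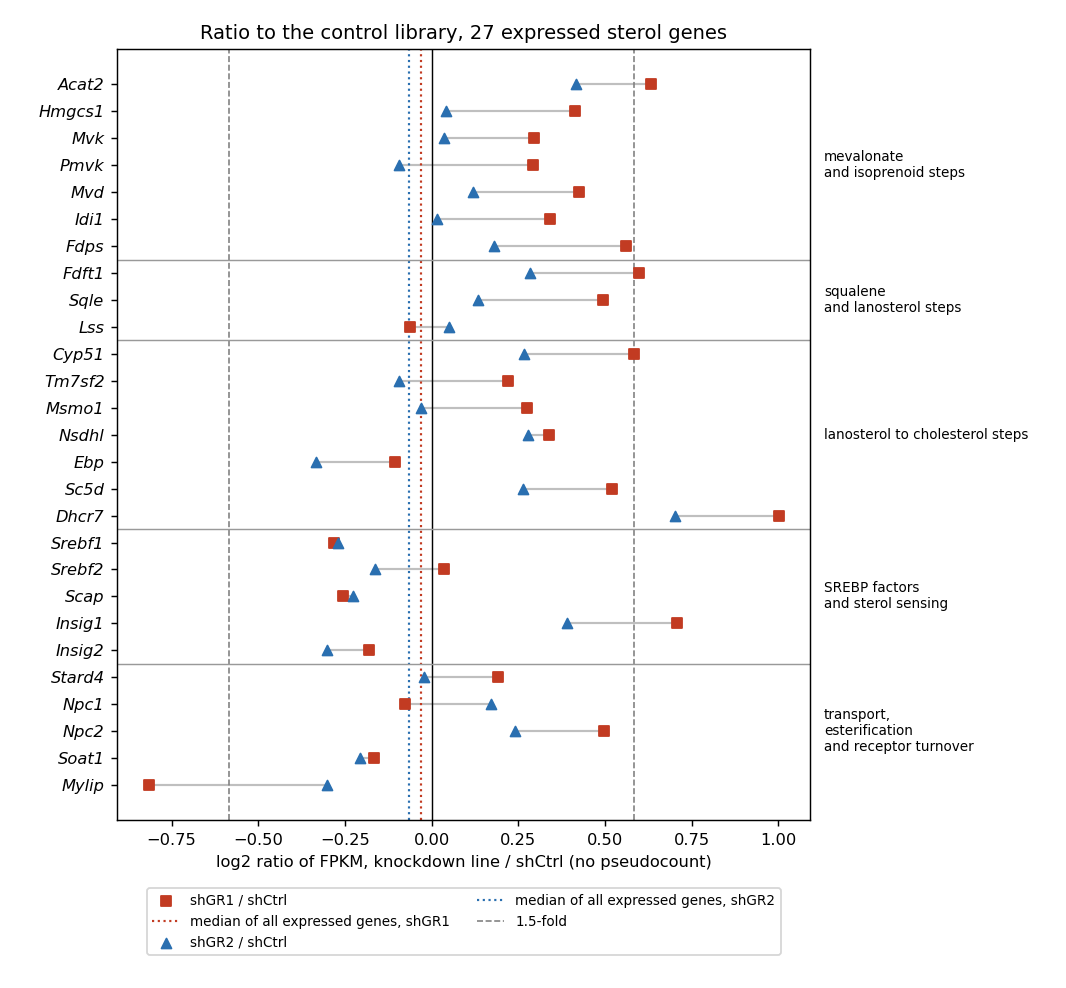
Log2 ratio of FPKM to the shCtrl library (x axis, no pseudocount) for the 27 expressed sterol genes (y axis, grouped by role), with squares for shGR1, triangles for shGR2, dotted lines at the median of all expressed genes and dashed lines at 1.5-fold. For 16 of the 17 synthesis enzymes the square lies to the right of the triangle, Lss being the exception.

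Over all 27 expressed members, 19 were higher and 8 lower in shGR1, beside 46.5% and 53.0% of all expressed genes. In shGR2, 16 were higher and 11 lower, beside 41.5% and 58.1% of all expressed genes. With quantile normalization these became 19 higher and 8 lower in shGR2, and the share of all genes that were higher there moved from 41.5% to 52.7%. The median log2 ratio of the members was 0.30 in shGR1 and 0.04 in shGR2, against -0.03 and -0.07 for all expressed genes. At 1.5-fold or more, 4 members were higher in shGR1 (Acat2, Fdft1, Dhcr7 and Insig1), where 10.7% of all genes were, and 1 was lower (Mylip), where 14.0% were. Fdft1 lay just inside that fold at a log2 ratio of 0.60 and Cyp51 just outside it at 0.58. In shGR2 only Dhcr7 was 1.5-fold higher, beside 8.88% of all genes, and no member was 1.5-fold lower, beside 12.5%.

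The shCtrl library lay below both knockdown libraries for 14 of the 27 members, and did so for 31.8% of all expressed genes. It lay above both for 6 members, and for 43.8% of all genes. FPKM was higher in shGR1 than in shGR2 for 22 of 27 members, against 56.7% of all genes, and the median log2 ratio of shGR2 to shGR1 was -0.26 for the members and -0.04 for all genes. These are counts over 1 library per line, and no test was made of the difference between the knockdown lines.

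With shGR1 and shGR2 as the knockdown libraries and shCtrl as the control, limma called 0 of the 27 members at an adjusted p under 0.05, and 0% of all 15438 genes. The adjusted p of the members ran from 0.288 for Dhcr7 to 0.988 for Lss. At an unadjusted p under 0.05, limma held 3 members higher (Acat2, Dhcr7 and Insig1), beside 4.53% of all genes, and 1 lower (Srebf1), beside 9.44%. None of the directions that follow is therefore a call, and they are given as the values of these libraries. With the ratios centred on the median of all genes, limma called 221 genes and with robust moderation 110, none of them a member.

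Markers of dividing cells lay in the same direction as the synthesis enzymes. Of 10 such genes 8 were higher in each knockdown line, beside 46.5% of all expressed genes in shGR1 and 41.5% in shGR2. With quantile normalization 9 were higher in shGR2, beside 52.7% of all genes. The 10 markers had a summed FPKM of 1036 in shCtrl, 1311 in shGR1 and 1197 in shGR2. Their medians were 0.54 in shGR1 and 0.31 in shGR2, the replication gene Mcm2 and the nucleotide reductase gene Rrm2 being the lower members. Their part in the sterol gene levels was not tested.

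**Figure D2:**
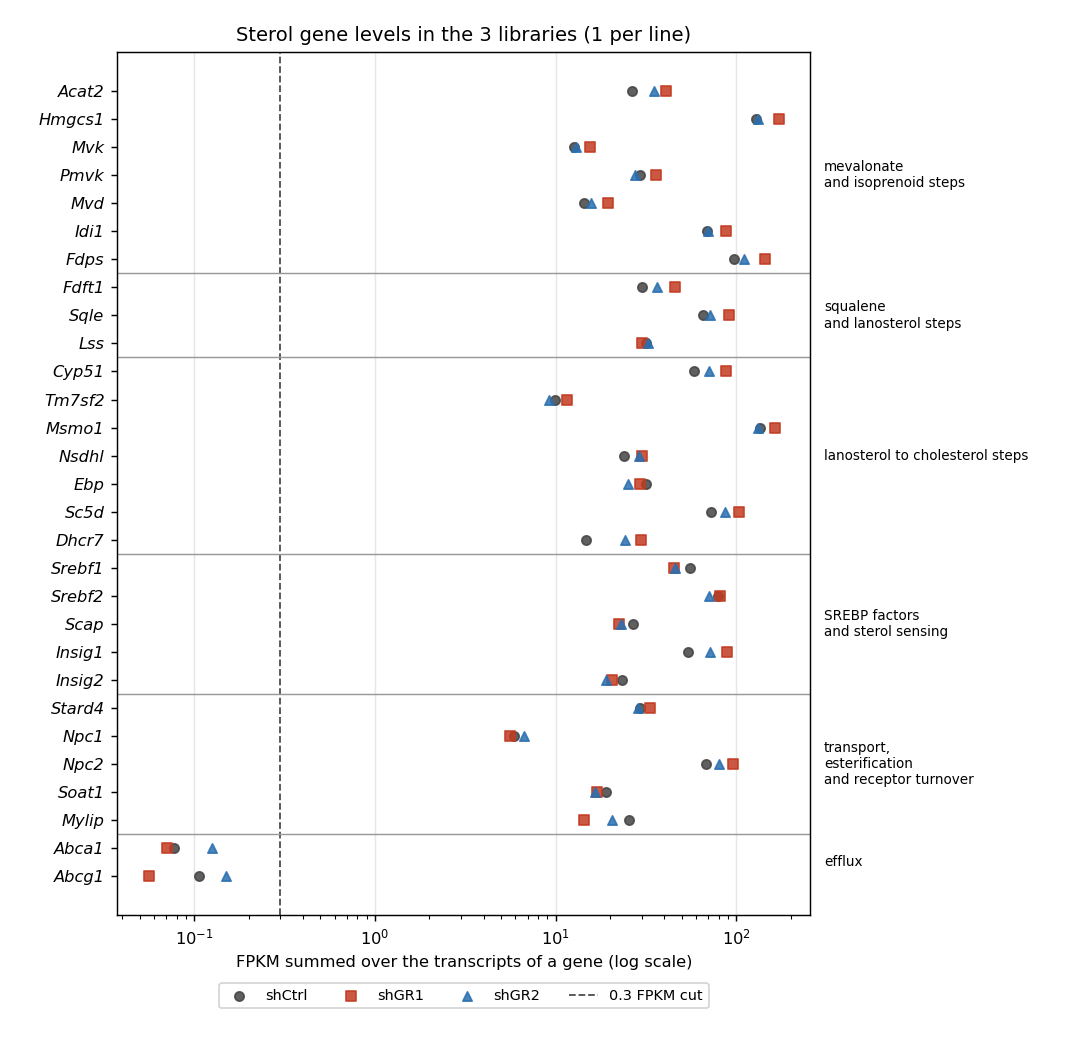
FPKM per gene (x axis, log scale) of the 29 members (y axis, grouped by role) in the shCtrl (circles), shGR1 (squares) and shGR2 (triangles) libraries, 1 library per line, with a dashed line at the 0.3 FPKM level for an expressed gene. All members but Abca1 and Abcg1 lie to the right of that line, between 5.60 and 172 FPKM.

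Promoter sequences from RefSeq (GRCm38.p6), from 250 bases before to 50 after an annotated start, were matched for 23 of the 29 members and are shown for the ones the results turn on, to set their letters beside their levels. Fdps, Fdft1, Sqle, Stard4, Npc1 and Abcg1 had no entry. Hmgcs1 is shown as the only member with the consensus of the sterol response element, TCACNCCAC, the SREBP motif. Dhcr7 (at the start nearest to its main transcripts) and Insig1 stand for the members with the highest ratios in shGR1, and Mylip for the lowest there. In these 4 sequences, at chr13:119690101-119690400, chr7:143829964-143830263, chr5:28071162-28071461 and chr13:45389492-45389791, all on the plus strand, capitals mark that consensus and the NF-Y box CCAAT, read on either strand.
Hmgcs1: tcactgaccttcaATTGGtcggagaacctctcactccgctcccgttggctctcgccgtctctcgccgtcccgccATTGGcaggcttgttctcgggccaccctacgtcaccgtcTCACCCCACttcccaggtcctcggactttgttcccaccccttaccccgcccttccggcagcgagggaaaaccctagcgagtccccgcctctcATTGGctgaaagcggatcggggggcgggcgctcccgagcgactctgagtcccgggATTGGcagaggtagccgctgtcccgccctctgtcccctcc
Dhcr7: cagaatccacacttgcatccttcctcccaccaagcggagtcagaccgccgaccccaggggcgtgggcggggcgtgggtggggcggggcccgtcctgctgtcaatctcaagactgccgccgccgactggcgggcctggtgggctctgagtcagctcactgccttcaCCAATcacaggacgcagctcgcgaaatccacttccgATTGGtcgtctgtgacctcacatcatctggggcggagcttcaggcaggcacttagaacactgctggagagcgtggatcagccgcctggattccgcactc
Insig1: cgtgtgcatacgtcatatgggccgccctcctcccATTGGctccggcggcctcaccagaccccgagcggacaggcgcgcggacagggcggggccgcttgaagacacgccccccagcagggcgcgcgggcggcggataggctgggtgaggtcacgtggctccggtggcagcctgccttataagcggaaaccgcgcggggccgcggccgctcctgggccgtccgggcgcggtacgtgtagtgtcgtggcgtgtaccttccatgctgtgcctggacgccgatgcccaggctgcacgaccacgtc
Mylip: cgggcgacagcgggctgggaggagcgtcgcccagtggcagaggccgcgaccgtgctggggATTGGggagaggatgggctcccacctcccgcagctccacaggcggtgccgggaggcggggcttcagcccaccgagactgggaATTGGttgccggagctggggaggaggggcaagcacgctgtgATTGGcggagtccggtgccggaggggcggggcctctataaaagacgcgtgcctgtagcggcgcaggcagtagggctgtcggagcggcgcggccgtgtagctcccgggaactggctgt

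Acat2 is shown because it was the only member with the core letters of the glucocorticoid response element, ACANNNTGT, which capitals mark in its sequence at chr17:12960676-12960975 on the minus strand.
Acat2: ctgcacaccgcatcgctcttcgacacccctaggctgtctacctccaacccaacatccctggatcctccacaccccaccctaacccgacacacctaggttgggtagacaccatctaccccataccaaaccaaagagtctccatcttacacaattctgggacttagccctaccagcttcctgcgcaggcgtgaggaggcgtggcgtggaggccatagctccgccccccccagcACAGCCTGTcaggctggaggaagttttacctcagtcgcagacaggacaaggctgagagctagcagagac

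Both strands were searched over 31 member promoters and over all 32851 promoters of the same length, and none of the searched motifs contains another. The sterol response element consensus was found in 1.24% of all promoters and in 1 of the 23 members, beginning 137 bases before the start of Hmgcs1. The NF-Y box, a site that often accompanies SREBP sites, was in 37.4% of all promoters (41.1% of genes) and in 20 of 23 members. GGGCGG, the Sp1 box, was in 35.7% of all promoters (38.2% of genes) and in 22 of 23 members. ACANNNTGT was in 6.85% of all promoters (7.90% of genes) and in Acat2 alone of the members, beginning 19 bases before its start. In Hmgcs1, NF-Y boxes began 237, 176 and 45 bases before the start and another lay after it, whereas Insig1 had 1, at 216 bases. Such a match is a description of letters and not a bound site. The shares are over all promoters, also those of genes not expressed here, whereas 27 of the 29 members are expressed. The share over expressed genes alone is not given here.

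**Figure D3:**
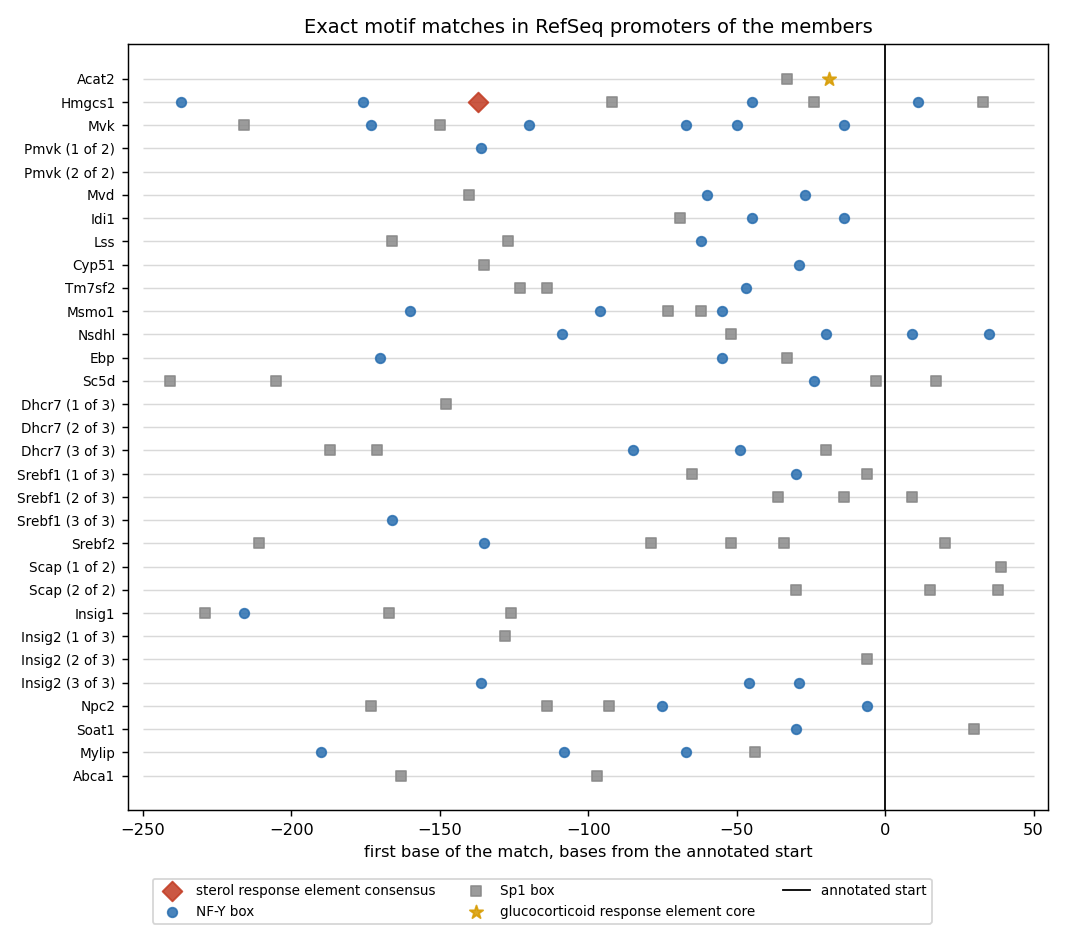
Position of exact motif matches (x axis, bases from the annotated start at 0) in the 31 RefSeq promoters of 23 members (y axis, genes with several starts numbered), with a diamond for the sterol response element consensus, circles for the NF-Y box, squares for the Sp1 box and a star for the core of the glucocorticoid response element. The single diamond is in Hmgcs1 and the single star in Acat2, while circles and squares are spread over most rows.

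The 7 enzymes from acetyl-CoA to farnesyl diphosphate were all higher in shGR1, with log2 ratios from 0.29 to 0.63 and a median of 0.41, and 6 of them were higher in shGR2, from 0.02 to 0.42. Acat2, the thiolase that joins acetyl-CoA units, was at 26.4 FPKM in shCtrl, 41.0 FPKM in shGR1 and 35.3 FPKM in shGR2. Both knockdown libraries lay well above the control, by 55.2% and 33.4%, with a limma log2 difference of 0.52 ± 0.14 (SE, 2 knockdown libraries against 1) and an adjusted p of 0.316. Part of this signal could not be assigned to Acat2. Its main transcript shares 445 bases at 98.7% identity with the neighbouring chaperonin gene Tcp1, which was at 160 FPKM in shCtrl, 235 FPKM in shGR1 and 208 FPKM in shGR2, and 1477 bases at 97.7% with Acat3, at 0.335, 0.940 and 0.331 FPKM in the same order. Whether the libraries kept the strand of the RNA is not stated in the sources used here.

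Hmgcs1, the synthase that makes HMG-CoA, was at 129 FPKM in shCtrl, 172 FPKM in shGR1 and 133 FPKM in shGR2. The shGR1 library was the high one, 33.3% above shCtrl, while shGR2 was 2.98% above. The same layout, with shGR1 high and shGR2 near the control, was seen for the kinases and the decarboxylase that follow. Mvk, mevalonate kinase, was at 12.7, 15.6 and 13.0 FPKM, in the order shCtrl, shGR1, shGR2 that is kept below. Pmvk, phosphomevalonate kinase, was at 29.5, 36.2 and 27.7 FPKM, so that it was 22.4% higher in shGR1 and 6.35% lower in shGR2, a direction that turned in shGR2 once a trend on transcript length was removed (log2 ratio 0.04 in place of -0.09). Mvd, the decarboxylase that yields isopentenyl diphosphate, was at 14.4, 19.4 and 15.7 FPKM.

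Idi1, the isomerase of isopentenyl diphosphate, was at 69.2 FPKM in shCtrl and 87.7 FPKM in shGR1, 26.7% higher, and shGR2 exceeded the control by only 1.11%. Fdps, farnesyl diphosphate synthase, was the second most abundant gene of these steps per unit of length in shCtrl, at 97.8 FPKM, with 144 FPKM in shGR1 and 111 FPKM in shGR2. Both genes have expressed near copies. For Fdps these include Gm3571, 98.9% identical over 1062 bases, at 8.19, 13.8 and 10.7 FPKM, and for Idi1 they include Gm13502, identical over 684 bases, at 8.26, 10.2 and 9.17 FPKM. How reads were divided between such copies is not known, and the values of both genes are uncertain to that extent.

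Of the 3 enzymes from farnesyl diphosphate to lanosterol, 2 were higher in shGR1 and 3 in shGR2. Fdft1, squalene synthase, was at 30.1 FPKM in shCtrl, 45.6 FPKM in shGR1 and 36.6 FPKM in shGR2, or 51.5% and 21.8% above the control. Its main transcript shares 771 bases with the overlapping protease gene Ctsb, which was lower in both knockdown libraries, at 62.1, 46.4 and 51.9 FPKM. Sqle, the epoxidase of squalene, was at 65.1, 91.8 and 71.5 FPKM, 40.9% and 9.83% above the control. Lss, lanosterol synthase, was at 31.5, 30.2 and 32.7 FPKM, so its 3 libraries lay within 0.11 of each other on the log2 scale. It was the only enzyme of synthesis lower in shGR1 than in shGR2.

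Leaving out Acat2, Fdft1, Fdps and Idi1, the members that share sequence with an expressed gene, 11 of 13 enzymes were higher in shGR1 and 9 in shGR2, and the medians were 0.34 and 0.05 in place of 0.41 and 0.12. This choice was made after seeing the data.

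From lanosterol to cholesterol, 6 of 7 enzymes were higher in shGR1 (median log2 ratio 0.34) and 4 in shGR2 (median 0.26). Cyp51, the demethylase of lanosterol, was at 58.7 FPKM in shCtrl, 87.9 FPKM in shGR1 and 70.5 FPKM in shGR2. Sc5d, the desaturase of the 7-dehydrocholesterol branch, was at 72.4, 104 and 86.9 FPKM, and like Cyp51 it stood highest in shGR1 and second in shGR2. Nsdhl, a decarboxylating dehydrogenase of the C4 position, was at 23.9, 30.2 and 28.97 FPKM, so both knockdown libraries lay at nearly the same level, 26.4% and 21.2% above the control. Of the members with a higher value in both lines it had the smallest gap between them, 0.06 on the log2 scale.

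Dhcr7, the reductase that makes cholesterol from 7-dehydrocholesterol, was at 14.8 FPKM in shCtrl, 29.7 FPKM in shGR1 and 24.1 FPKM in shGR2. It was 100.2% higher in shGR1 and 62.7% higher in shGR2, the highest ratio of the 27 expressed members in each line. This rank was lost with the leading transcript only. The log2 ratios of Dhcr7 were then 0.49 and 0.22, below those of Insig1 at 0.74 and 0.42. On the summed values, limma gave Dhcr7 a log2 difference of 0.85 ± 0.18 (SE), an unadjusted p of 0.0149 and an adjusted p of 0.288, the lowest of the members. Over the alternatives tried in limma, the lowest adjusted p of any member ran from 0.0733 with centred ratios to 0.418 with no abundance trend.

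The remaining enzymes of these steps differed little or in another direction. Msmo1, the methyl sterol oxidase and in shCtrl the most abundant member per unit of length, was at 135 FPKM in shCtrl, 163 FPKM in shGR1 and 132 FPKM in shGR2. Tm7sf2, a sterol C14 reductase, was at 9.89, 11.5 and 9.26 FPKM. Both were above the control in shGR1 and slightly below it in shGR2, a difference whose sign in shGR2 turned with quantile normalization, where the log2 ratios were 0.09 for Msmo1 and 0.01 for Tm7sf2. Ebp, the sterol isomerase, was at 31.8, 29.5 and 25.2 FPKM, the only synthesis enzyme below the control in both knockdown libraries.

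Among the factors that drive and sense the pathway, Insig1 was higher in both knockdown libraries and Srebf1, Scap and Insig2 were lower. Insig1, an SREBP target whose protein retains Scap in the endoplasmic reticulum, was at 54.4 FPKM in shCtrl, 88.9 FPKM in shGR1 and 71.3 FPKM in shGR2. It was 63.5% and 31.1% above the control, with a limma log2 difference of 0.55 ± 0.17 (SE), an unadjusted p of 0.0473 and an adjusted p of 0.352. Insig2, its paralog, lay the other way, at 23.4, 20.6 and 19.0 FPKM. Its 3 libraries spanned a log2 range of 0.30.

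Srebf1, which encodes SREBP-1, was at 55.3 FPKM in shCtrl and at nearly equal levels in the knockdown libraries, 45.5 FPKM in shGR1 and 45.8 FPKM in shGR2. The limma log2 difference was -0.28 ± 0.09 (SE), with an unadjusted p of 0.0455 and an adjusted p of 0.350. Scap, the escort protein of the SREBPs, was at 26.9, 22.5 and 23.03 FPKM, 16.3% and 14.5% below the control. Srebf2, the gene of the SREBP that acts mainly on sterol synthesis, was at 79.5, 81.5 and 71.0 FPKM. It was 2.45% above the control in shGR1 and 10.8% below it in shGR2. Whether the Srebf2 level bears on the levels of the enzymes was not tested.

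Of the genes of transport, esterification and receptor turnover, 2 were higher and 3 lower in each line. Npc2, which hands cholesterol to Npc1 in the lysosome, was at 68.2 FPKM in shCtrl, 96.2 FPKM in shGR1 and 80.6 FPKM in shGR2, above the control in both lines. Npc1, the membrane protein of the same step, was at 5.90, 5.60 and 6.65 FPKM, the least abundant of the expressed members per unit of length in shCtrl. The pair thus differed, Npc1 lying 5.08% below the control in shGR1 and 12.7% above it in shGR2. Stard4, a soluble sterol carrier, was at 29.2, 33.3 and 28.7 FPKM, and its small difference in shGR2 changed sign with centred ratios (log2 ratio 0.04 in place of -0.02). Soat1, which esterifies cholesterol, was at 19.1, 16.98 and 16.5 FPKM, lower in both knockdown libraries by 10.9% and 13.3%.

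Mylip, an LXR target in other mouse cells whose protein marks lipoprotein receptors for degradation, was at 25.5 FPKM in shCtrl, 14.5 FPKM in shGR1 and 20.6 FPKM in shGR2. It was 43.2% below the control in shGR1 and 18.9% below it in shGR2. The lines differed from each other by 0.51 on the log2 scale, the widest gap among the expressed members, and the limma log2 difference was accordingly imprecise, at -0.56 ± 0.27 (SE) with an adjusted p of 0.455. Abca1, the main exporter of cholesterol to apolipoproteins, was at 0.0769, 0.0706 and 0.125 FPKM. Abcg1, which exports cholesterol to lipoprotein particles, was at 0.106, 0.0561 and 0.1503 FPKM. By the rough worth of 1 fragment these are about 32 and 16 fragments in shCtrl, so no direction was read from them, whereas the expressed members ranged from about 438 (Tm7sf2) to 16931 fragments (Hmgcs1).

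The table gives 154 transcripts of the members, of which 108 were over 0.3 FPKM in a library, and in 9 members the leading transcript held under 70% of the gene in at least 1 library. Transcripts of a gene share most of their reads, so their split is an estimate by the authors' software, and a transcript listed at 0 may be a failed estimate. Dhcr7 had the clearest division. Dhcr7-202, a protein-coding transcript, was at 9.72 FPKM in shCtrl, 13.7 FPKM in shGR1 and 11.3 FPKM in shGR2. Dhcr7-211, also protein-coding, with a start 621 bases downstream, was at 4.16, 13.1 and 10.1 FPKM, so that its share of the gene was 28.1% in shCtrl, 44.1% in shGR1 and 41.9% in shGR2. The promoter of Dhcr7 shown above covers the start of this shorter transcript.

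Srebf1 was divided as well. Srebf1-201 was at 23.3 FPKM in shCtrl, 14.8 FPKM in shGR1 and 15.3 FPKM in shGR2, a share of 42.2%, 32.4% and 33.5% of the gene. Srebf1-207, whose annotated start lies 10139 bases downstream, was at 17.9, 16.0 and 18.8 FPKM. The lower level of the gene in both knockdown libraries was thus mostly that of Srebf1-201.

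In Idi1, the transcript Idi1-201 was at 41.5, 48.7 and 41.5 FPKM, while Idi1-204 was listed at 0 in shCtrl and was at 18.8 and 6.07 FPKM in the knockdown libraries. Idi1-203, which starts 50 bases from it, was at 26.8, 19.5 and 20.96 FPKM, and these short transcripts cannot be told apart well. In Sc5d the higher level was carried by Sc5d-202, at 45.1, 73.6 and 56.5 FPKM, whereas the longer Sc5d-201 was at 27.3, 30.3 and 27.5 FPKM.

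For 3 further enzymes, transcripts annotated with a retained intron were among those over 0.3 FPKM. In Ebp such a transcript, Ebp-204, led at 18.6, 17.3 and 12.4 FPKM, and the coding Ebp-201 was at 12.4, 9.64 and 11.8 FPKM. The lower Ebp value in shGR2 was thus mainly that of Ebp-204. In Tm7sf2 the coding Tm7sf2-201 was at 3.82, 2.85 and 3.60 FPKM and the intron-retaining Tm7sf2-206 at 0.535, 1.96 and 0.952 FPKM, so the coding transcript was lowest in shGR1, where the gene as a whole was highest. In Lss the coding Lss-201 was at 16.5, 14.1 and 16.2 FPKM and the intron-retaining Lss-204 at 6.66, 5.46 and 8.69 FPKM. Mvk and Soat1 were divided among coding transcripts in the main, Mvk-201 being at 6.66, 8.54 and 6.17 FPKM and Soat1-201 at 12.4, 11.2 and 10.6 FPKM.

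**Figure D4:**
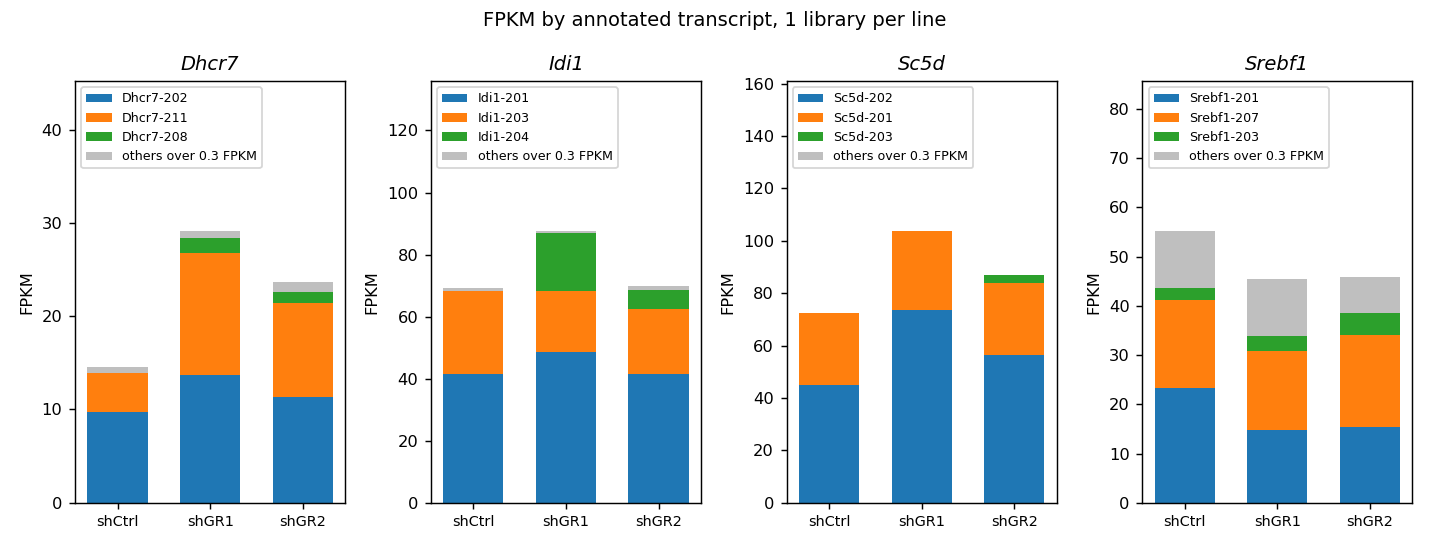
FPKM by annotated transcript (stacked bars, y axis in FPKM from 0) in the shCtrl, shGR1 and shGR2 libraries for Dhcr7, Idi1, Sc5d and Srebf1, with the 3 most abundant transcripts in color and the others over 0.3 FPKM in gray. Dhcr7-211 takes 4.16 FPKM of the shCtrl bar and 13.1 FPKM of the shGR1 bar, and Srebf1-201 is the segment that is smaller in both knockdown libraries.

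Beside the 29 members, 75 further genes of sterol and SREBP biology were listed, of which 64 were expressed. They did not share the direction of the synthesis enzymes, with 33 higher and 31 lower in shGR1 (median log2 ratio 0.03) and 30 higher and 34 lower in shGR2 (median -0.02). Of all expressed genes, 46.5% were higher and 53.0% lower in shGR1, and 41.5% and 58.1% in shGR2. The counts of each list below are to be read beside these shares. With quantile normalization the counts in shGR2 became 43 and 21, where 52.7% of all genes were higher. With centred ratios 49.8% of all genes were higher in shGR2. In the main fit none of the 64 was called by limma, since no gene was. Whether any of them was called with centred ratios or robust moderation is not given here.

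The further synthesis genes counted 4 higher and 3 lower of 7 in each line. Hsd17b7, a ketoreductase of cholesterol synthesis, was at 10.9, 14.0 and 13.0 FPKM. Nus1, a subunit of the enzyme that makes dolichol precursors, was at 36.8, 25.3 and 35.4 FPKM, lowest in shGR1, and Ggps1, which makes geranylgeranyl diphosphate, was at 33.3, 30.01 and 29.4 FPKM.

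In uptake and lysosomal egress, 7 of 10 expressed genes were higher in each line, beside 46.5% of all expressed genes in shGR1 and 41.5% in shGR2. The 4 uptake genes with the largest mean ratios lay widely apart. Lrp1, a large endocytic receptor, was at 5.59 FPKM in shCtrl, 14.0 FPKM in shGR1 and 9.26 FPKM in shGR2. Lipa, the lysosomal lipase that frees cholesterol from its esters, was at 2.37, 4.83 and 3.09 FPKM. Both showed the order of the synthesis enzymes, with shGR1 highest and shGR2 second. Scarb2, a lysosomal membrane protein, had the reverse order at 22.5, 9.42 and 14.6 FPKM, and Lrp2, the endocytic receptor megalin, was at 1.05, 1.10 and 2.10 FPKM, close to the control in shGR1 and above it in shGR2.

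Genes that process SREBPs or degrade sterol-regulated proteins counted 7 higher and 4 lower in shGR1 and 5 and 6 in shGR2, the latter becoming 10 and 1 with centred ratios. Mbtps2, the protease that makes the second cut of SREBPs, was at 18.7, 24.5 and 21.9 FPKM, and Rnf145, a ubiquitin ligase of the endoplasmic reticulum, was at 36.6, 45.4 and 44.0 FPKM. Erlin2, of a complex that degrades endoplasmic reticulum proteins, was at 50.9, 33.5 and 48.8 FPKM, lowest in shGR1.

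LXR receptors and targets were mixed, with 4 of 9 higher in shGR1 and 5 of 9 in shGR2. Arl4c, a small GTPase induced by LXR, was at 36.6, 65.1 and 66.2 FPKM, higher in both knockdown libraries by nearly the same amount. Abca7, a lipid transporter, was at 10.6, 7.75 and 7.53 FPKM. Abcg4, at 0.257, 0.685 and 0.695 FPKM, and the LXR gene Nr1h3, at 0.0421, 0.0718 and 0.340 FPKM, were under the 0.3 FPKM level in shCtrl. Both are among the higher genes counted above. They passed that level only in a knockdown library, so no direction is read from either. Mylip, a further LXR target, lay below the control in both lines, opposite to Arl4c.

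Nceh1, the hydrolase that reverses the esterification by Soat1, was at 37.6 FPKM in shCtrl, 23.1 FPKM in shGR1 and 23.6 FPKM in shGR2. It and the neuronal hydroxylase gene Cyp46a1, at 0.180, 0.0618 and 0.337 FPKM, were the expressed genes of 6 oxysterol and sterol ester enzymes. Cyp46a1 passed the 0.3 FPKM level only in shGR2, so no direction is read from it. Sterol transfer proteins were lower in 7 of 10 cases in each line, beside 53.0% of all expressed genes in shGR1 and 58.1% in shGR2. Among those with the largest mean ratios, Osbpl10, an oxysterol binding protein, was at 5.93, 3.57 and 3.79 FPKM. Stard5 was at 2.63, 2.30 and 1.70 FPKM, and Gramd1c at 5.64, 4.92 and 3.69 FPKM. Osbpl10, Stard5 and Gramd1c had their highest value in shCtrl. Gramd1b, at 0.540, 0.172 and 0.286 FPKM, is among the lower genes counted. It passed the 0.3 FPKM level only in shCtrl, so no direction is read from it.

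Fatty acid synthesis, the arm that SREBP-1 drives, counted 8 higher and 7 lower of 15 in shGR1 and 5 higher and 10 lower in shGR2. Of all expressed genes, 53.0% were lower in shGR1 and 58.1% in shGR2. With centred ratios the counts in shGR2 became 8 and 7. Scd1, a stearoyl-CoA desaturase, was at 60.6, 90.2 and 78.1 FPKM, and Acly, which supplies cytosolic acetyl-CoA, was at 60.4, 84.4 and 65.3 FPKM. Acacb, an acetyl-CoA carboxylase, was at 0.882, 1.61 and 0.804 FPKM. Mid1ip1, a regulator of acetyl-CoA carboxylase, was far below the control in both lines, at 112, 49.0 and 56.7 FPKM.

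**Figure D5:**
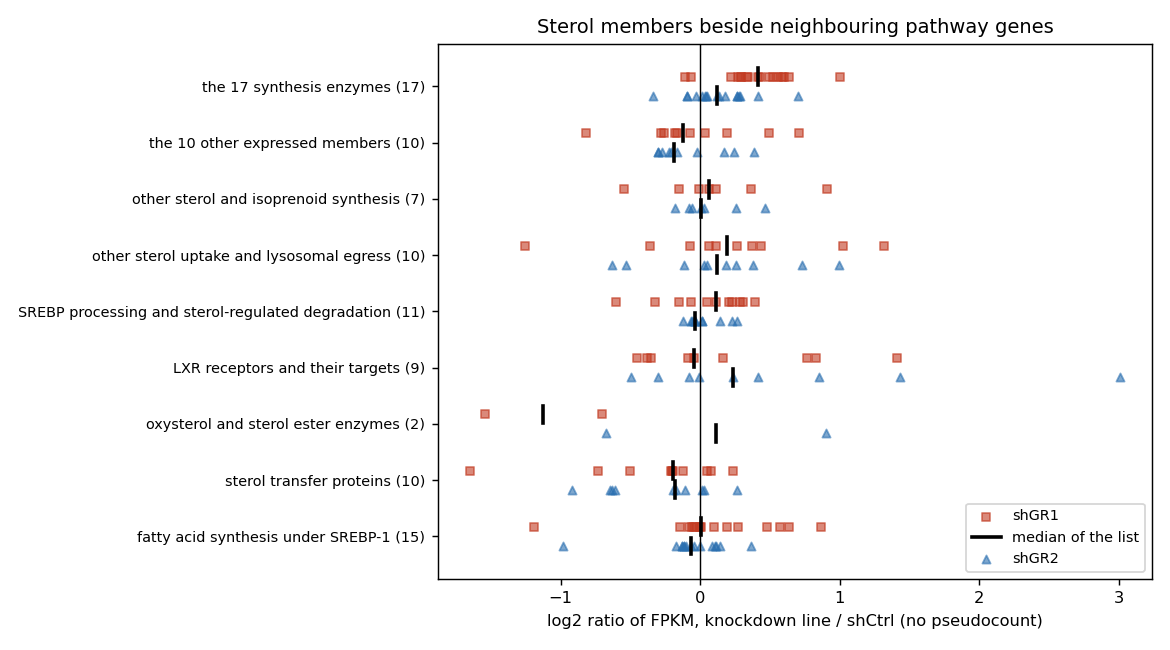
Log2 ratio of FPKM to shCtrl (x axis, no pseudocount) for the synthesis enzymes, the other expressed members and 7 lists of neighbouring pathway genes (y axis, number of genes in brackets), with squares for shGR1, triangles for shGR2 and black bars at the median of each list. The synthesis enzymes have medians of 0.41 and 0.12, and the sterol transfer proteins of -0.20 and -0.18. The points include Cyp46a1, Abcg4, Nr1h3 and Gramd1b, which were not over 0.3 FPKM in every library.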

How the data were processed

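Total RNA of 3 mpkCCD lines was sequenced, 1 library each. The authors deposited FPKM for 128603 transcripts. The submitters' processing notes name bcl2fastq 2.20, HISAT2 (no version), Cufflinks 2.2.1 and Cuffdiff, and the build GRCm39, but of 127971 transcripts found in GENCODE M21 (GRCm38), 98.5% have deposited loci that span the position given there, and GRCm38 is used. The deposited columns of the authors' own comparisons hold ratios, p-values and q-values and were not used.

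FPKM were summed per symbol, and log2 ratios to shCtrl carry no pseudocount. Limma 3.58.1 was fitted to log2(FPKM + 0.1) of 15438 genes with an abundance trend and Benjamini-Hochberg adjustment (threshold 0.05), with 1 residual degree of freedom. The single shCtrl library is taken to vary like the knockdown lines, which carry different hairpins, so p-values measure only the spread between those. The fit was tested on simulated data in which all libraries varied alike, so that test does not bear on the spread of shCtrl. Shared sequence was sought with blastn 2.17.0 (at least 95% identity over 200 bases), and loess came from statsmodels 0.14.6. All 29 members were described, with up to 4 expressed genes of each further list by the largest mean ratio. Members and lists were chosen with earlier results of these data known. Alternatives covered scaling, length, filters, pseudocounts, folds and the leading transcript. The depth is known only roughly. Some genes that the rule names are not reported here.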

Additional observations from a re-analysis of the deposited data

How the results depend on the processing

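The members' median log2 ratio stayed between 0.28 and 0.36 in shGR1 and between -0.00 and 0.13 in shGR2 under the scalings, filters, pseudocounts and the leading transcript. The lowest shGR2 value was with the leading transcript only, where 13 members were higher and 14 lower. Of the 17 synthesis enzymes, 10 were higher in shGR2 with the leading transcript only and 16 with the trend on transcript length removed. With the fold lowered from 1.5 to the smaller alternative, 13 members were higher in shGR1, and 3 were higher and 1 lower in shGR2. At 2-fold, 1 was higher and 0 were lower in shGR1, and 0 were higher in shGR2. Quantile normalization put 7 members past 1.5-fold higher in shGR1. With no filter, 2 were past it lower in shGR1 and 2 higher in shGR2, which adds Abcg1 and Abca1. With the leading transcript only, 2 were lower in shGR1, and 0 were higher and 2 lower in shGR2. The share of all genes past the fold in these alternatives is not given here. These counts therefore show only how the members' own numbers moved. In limma, 221 genes were called with centred ratios and 110 with robust moderation, against 0, and 4 members at an unadjusted p under 0.05 became 9 with centred ratios, 7 with quantile normalization and 1 with no abundance trend. The members counted in these alternatives were all higher in the knockdown libraries. Over all 15438 genes, 699 were higher and 1458 lower at an unadjusted limma p under 0.05 in the main fit. These became 1134 and 1408 with centred ratios, 1138 and 1121 with quantile normalization, and 631 and 1165 with no abundance trend. The cause of these changes was not tested. Without shGR1 or without shGR2, the members' median over the remaining line was 0.04 or 0.30. Leaving out the members with shared sequence, an alternative added after seeing the data, gave medians of 0.28 and 0.04. No paired analysis was possible because each group holds 1 library, so the groups share fewer than 2 replicate numbers. Without counts, small differences cannot be set against counting error.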
